A study of Mus musculus with 6 samples.

Results

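The genes described here are the 7 Fos and Jun genes of the AP-1 family, Fos, Fosb, Fosl1, Fosl2, Jun, Junb and Jund, in the hippocampus of mice given the antidepressant venlafaxine. They were taken by gene symbol: every probe set whose platform annotation gives 1 symbol, that symbol being a family member. This gave 11 probe sets for the 7 genes, of 45101 probe sets on the array and 18193 genes with a probe set of their own, and each gene was read from its brightest probe set on average over the 6 arrays. The animals were male DBA/2 mice, an inbred strain, housed singly, with no genetic change named in the labels. They drank venlafaxine at 0 (control), 30 (low dose) or 100 (high dose) mg per kg body weight and day for 30 days, with 10 animals a dose group. Hippocampal RNA of each group was pooled by brain side into 1 left and 1 right pool, and each pool went onto 1 Affymetrix array. The 2 arrays of a group may thus come from the same brains, so the errors given here measure the spread between pools and may be technical. Hybridization took place on 2 dates: replicate 2 of the control and of the high dose on the later one, the other 4 arrays on the first. Replicate 1 was the right pool in the control and low dose groups and the left pool in the high dose group.

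AP-1 is a transcription factor made of 2 proteins joined through their leucine zippers. Jun proteins pair with each other or with Fos proteins, while Fos proteins need a Jun partner to bind DNA. Fos, Fosb and Junb are immediate early genes, switched on within minutes in neurons by synaptic activity through calcium, CREB and serum response factor, and Fos RNA is widely used as a trace of recent neuronal activity. Jund and, to a lesser degree, Jun are made in many resting cells, and Fosb also yields the stable splice form ΔFosB, which builds up under repeated stimulation. Venlafaxine acts by inhibiting the serotonin and noradrenaline transporters.

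The start regions of the 6 members in the RefSeq table are shown so that members with and without a difference between the dose groups can be read side by side. Each is the 150 bases before the RefSeq transcription start in the mouse genome GRCm38.p6, 5′ to 3′ on the gene's own strand, and capitals mark TGACG, the core of the CREB site, TATAAA, and TGACATCA, an AP-1-like site, where they occur on either strand.
Fos, chr12:85473740-85473889, plus strand: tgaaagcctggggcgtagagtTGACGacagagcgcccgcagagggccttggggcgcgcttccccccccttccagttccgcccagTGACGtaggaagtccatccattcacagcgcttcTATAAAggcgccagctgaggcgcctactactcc
Fosb, chr7:19310046-19310195, minus strand: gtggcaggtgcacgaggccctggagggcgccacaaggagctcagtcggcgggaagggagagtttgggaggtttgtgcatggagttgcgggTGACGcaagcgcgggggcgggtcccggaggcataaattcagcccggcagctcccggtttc
Fosl2, chr5:32136322-32136471, plus strand: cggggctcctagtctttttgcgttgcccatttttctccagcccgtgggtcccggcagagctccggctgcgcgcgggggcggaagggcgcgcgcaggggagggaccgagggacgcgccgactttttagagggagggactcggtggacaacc
Junb, chr8:84978749-84978898, minus strand: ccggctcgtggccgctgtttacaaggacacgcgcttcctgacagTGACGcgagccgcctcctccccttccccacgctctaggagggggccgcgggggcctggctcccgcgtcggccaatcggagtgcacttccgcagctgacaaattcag
Jun, chr4:95052223-95052372, minus strand: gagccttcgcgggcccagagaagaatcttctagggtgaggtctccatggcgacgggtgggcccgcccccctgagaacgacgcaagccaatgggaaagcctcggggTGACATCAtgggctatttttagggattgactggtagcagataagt
Jund, chr8:70697589-70697738, plus strand: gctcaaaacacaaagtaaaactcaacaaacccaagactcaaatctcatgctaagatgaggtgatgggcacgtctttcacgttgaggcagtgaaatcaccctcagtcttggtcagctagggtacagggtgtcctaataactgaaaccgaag

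In the 250 bases before the start TGACG occurred in Fos, Fosb and Junb and in none of Fosl2, Jun and Jund. Fos, Fosb and Junb had lower means at both doses. Of the members that did not hold it, Fosl2 was lower by its brighter probe set only. Jund had -0.082 at the low and -0.0082 at the high dose, and Jun 0.11 and 0.030. Whether TGACG goes with the differences was not tested. Fos held it at 2 places, starting 129 and 66 bases before the start, Fosb at 60 and Junb at 106. Among all 32841 start regions of that length 17.8% held TGACG on at least 1 strand. TGACATCA was found in Jun alone of the 6, from base 45 before the start, and in 2.93% of all start regions. TATAAA, which was found in Fos, occurred in 12.4% of them. The full AP-1 site TGACTCA (4.46%) and the CArG box bound by serum response factor (1.47%) were found in none of the 6 windows. Sequence farther than 250 bases from the start was not searched, so these genes may hold such sites there. These are matches of letters, read on both strands, and say nothing of binding.

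Fos was the family member with the largest difference between treated and untreated hippocampus. Its log2 level was 11.06 and 11.21 on control replicates 1 and 2, 10.41 and 10.64 on the low dose arrays, and 10.50 and 10.59 on the high dose arrays. Both controls stood above all 4 treated arrays, by at least 0.42, and the low and high dose values overlapped. The control mean was 11.14 ± 0.11 (SD, n = 2), the low dose mean 10.52 ± 0.16 (SD, n = 2) and the high dose mean 10.55 ± 0.062 (SD, n = 2). Fos fell at the low dose by 0.61 on the log2 scale, or 1.53-fold (SE 0.11, limma with Benjamini-Hochberg adjustment over 11743 genes, adjusted p = 0.0193). At the high dose its log2 difference from control was -0.59 (SE 0.11), a level 1.51-fold lower that missed the threshold of 0.05 (limma adjusted p = 0.0747). With both doses set against control, Fos fell by 0.60 (SE 0.094, limma adjusted p = 0.00568), lower in 4 of 4 treated arrays. In this bulk tissue fewer cells with Fos RNA and less Fos RNA per cell cannot be told apart.

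**Figure D1:**
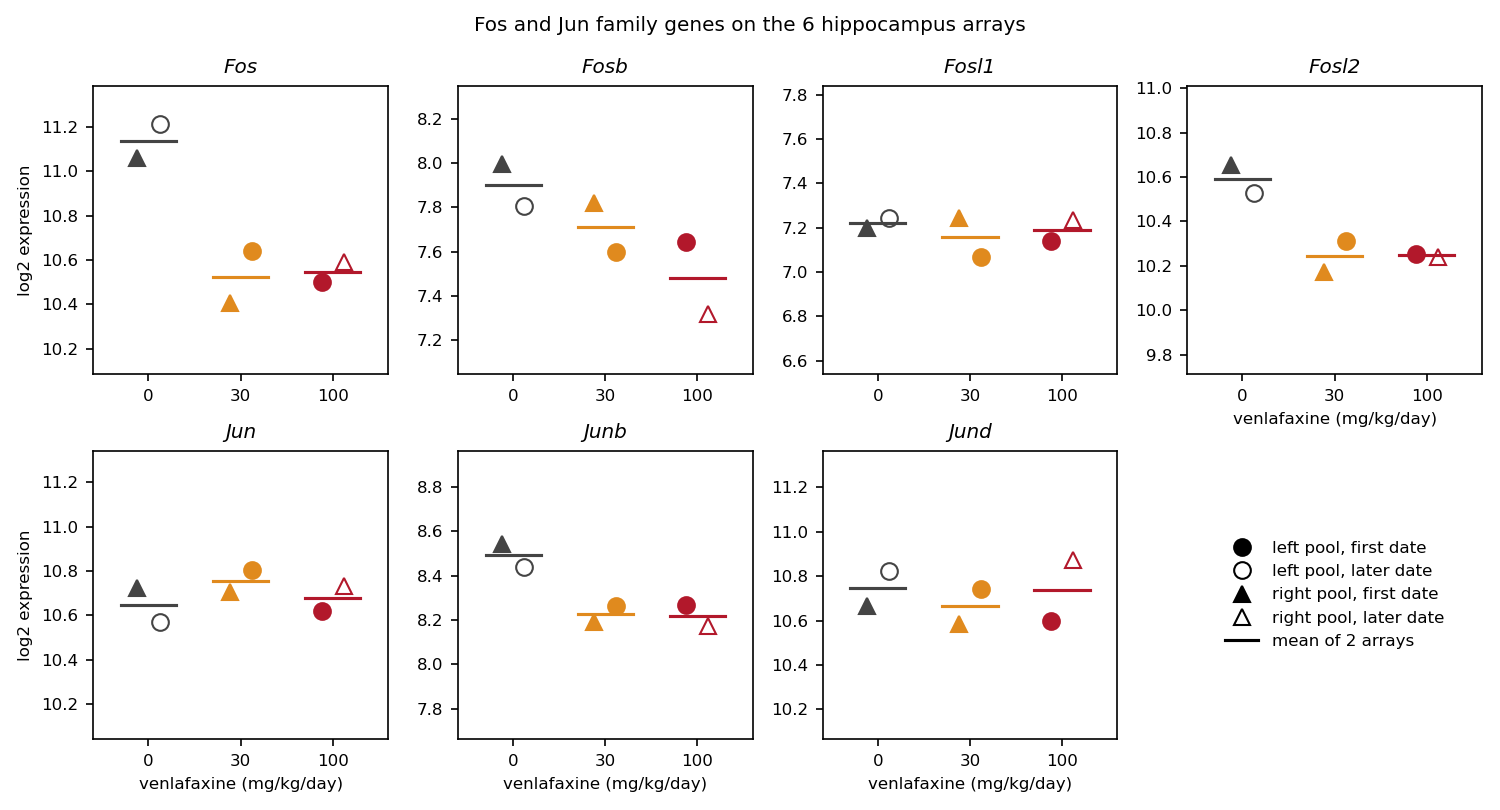
Log2 expression of each family member (vertical axes, each spanning the same 1.3 log2 units) by venlafaxine dose in mg per kg and day, with circles for left and triangles for right pools, filled symbols for the first and open symbols for the later date, and a line at the mean of the 2 arrays. The Fos, Fosl2 and Junb controls lie above all 4 treated arrays, whereas the values of Fosl1, Jun and Jund overlap between the groups.

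In Fosl2 and Junb, too, both controls stood above all 4 treated arrays, with smaller differences than in Fos. Fosl2 encodes Fra-2, a Fos protein without the strong activating end of Fos. It measured 10.66 and 10.53 on the controls, 10.17 and 10.31 at the low dose, and 10.25 and 10.24 at the high dose, with both controls at least 0.22 above every treated array. The log2 difference from control was -0.35 (SE 0.10) at each dose, 1.27-fold, and neither passed (limma adjusted p = 1.00 at the low and 0.989 at the high dose). A second Fosl2 probe set, near the array median, went the other way: 7.73 and 7.64 on the controls, 7.80 and 7.81 at the low dose, and 7.79 and 7.76 at the high dose. There both controls lay below all treated arrays, by amounts between 0.028 and 0.17, so the 2 probe sets of Fosl2 disagree in direction. Junb, a Jun protein that is induced with Fos, measured 8.54 and 8.44 on the controls, 8.19 and 8.26 at the low dose, and 8.27 and 8.17 at the high dose. Its controls stood at least 0.17 above the treated arrays, and its log2 difference was -0.26 (SE 0.10, limma adjusted p = 1.00) at the low and -0.27 (SE 0.10, adjusted p = 1.00) at the high dose, about 1.20-fold and 1.21-fold lower.

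Fosb, whose protein resembles Fos, had its lowest values at the high dose. It measured 7.99 and 7.81 on the controls, 7.82 and 7.60 at the low dose, and 7.64 and 7.32 at the high dose. Both high dose arrays were below both controls, while low dose replicate 1 lay 0.015 above control replicate 2. The log2 difference from control was -0.42 (SE 0.12, limma adjusted p = 0.850) at the high dose and -0.19 (SE 0.12, adjusted p = 1.00) at the low dose. Without 1 array these values ran from -0.58 (without high dose replicate 1) to -0.26 (without high dose replicate 2) at the high dose, and from -0.30 (without low dose replicate 1) to -0.079 (without low dose replicate 2) at the low dose, where RNA integrity as a covariate gave -0.45. Fosb is close to the array median and exceeded it on 3 arrays only, both controls and low dose replicate 1, so it passed the filter on dim genes through the arrays where it was highest. The annotation names only the gene, so Fosb and ΔFosB transcripts are not told apart here.

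Jun, the founding member, and Jund, the Jun gene of resting cells, showed no separation by dose. Jun measured 10.72 and 10.57 on the controls, 10.71 and 10.80 at the low dose, and 10.62 and 10.73 at the high dose. Jund measured 10.67 and 10.83 on the controls, 10.59 and 10.74 at the low dose, and 10.60 and 10.87 at the high dose. The 3 groups overlapped for both genes. For Jun the 95% interval of the log2 difference ran from -0.11 to 0.32 at the low and from -0.18 to 0.25 at the high dose, and for Jund from -0.31 to 0.15 and from -0.24 to 0.22. The Junb difference of the same dose lies inside the interval only for Jund at the low dose; whether the genes respond differently was not tested. The sign of the Jund value at the high dose turned from -0.0082 to 0.046 after quantile normalization and 0.043 after centring on the 75th percentile. The second Jun probe set ranged from 10.40 to 10.56 and overlapped likewise. The antisense gene Junos, which starts beside Jun, was dim, between 7.23 and 7.44. Fosl1, which encodes Fra-1, was below the median of every array with both probe sets, between 7.07 and 7.25 for the brighter one, and was not tested. Without the filter the log2 difference of the brighter one was -0.067 at the low and -0.035 at the high dose. The other went the opposite way, with means of 6.96 in the controls, 7.01 at the low and 7.08 at the high dose and overlapping values.

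Of the 6 members tested, 1 (Fos) was called lower at the low dose, where 0.0341% of all tested genes were, 1 (Fos) with both doses together, where 0.0426% were, and 0 at the high dose, where 0.00852% were. Among the 5 members other than Fosb, Fos, Fosl2 and Junb had an unadjusted limma p under 0.05 at each dose. So did 390 of all 11743 tested genes at the low and 324 at the high dose. In 3 of 6 members, Fos, Fosl2 and Junb, both controls lay above all 4 treated arrays, beside 4.39% of all tested genes. Leaving out Fosb, which passed the filter through its highest arrays, both arrays of the group lay below both controls in 3 of 5 members at the high dose (18.7% of all tested genes) and in 3 of 5 at the low dose (7.78%). The median log2 difference over these 5 was -0.27 at the high and -0.26 at the low dose, against -0.030 and 0.038 over all tested genes. The high and low dose comparisons share their control arrays. An exact two-sided permutation test of controls against treated arrays, with 15 possible splits, gave p = 0.0667 for Fos, Fosl2 and Junb, the smallest value this design allows, and 0.267 for Fosb. Every gene with both controls above all treated arrays gets this smallest value. For these 3 genes the test thus restates the separation and adds no support.

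**Figure D2:**
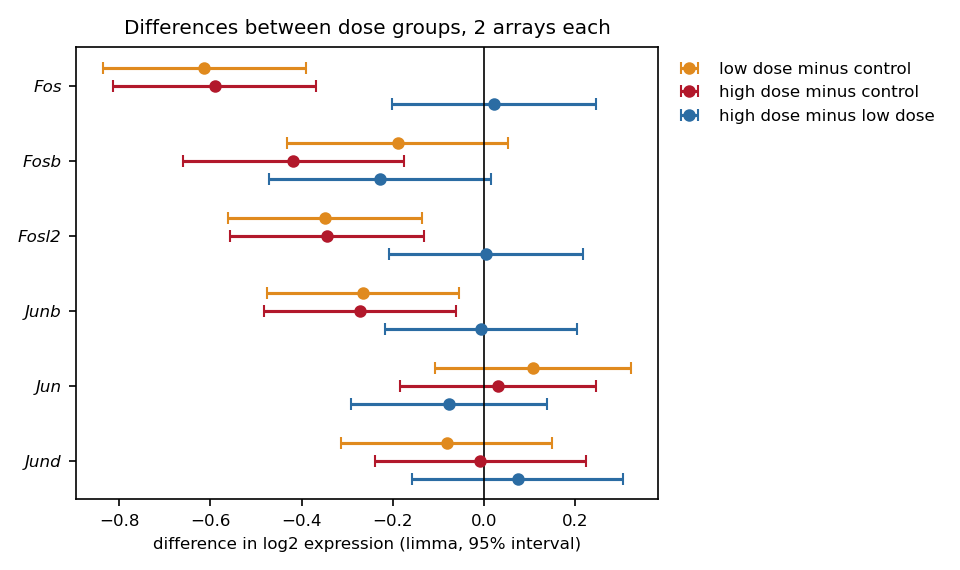
Differences in log2 expression between dose groups (horizontal axis) for the 6 tested members, as limma estimates with 95% intervals from 2 arrays a group. The Fos differences from control are -0.61 and -0.59 at the low and high dose, and the interval of high minus low dose includes 0 for all 6 genes.

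Between the doses the members did not separate. None of the 6 was called in high against low dose, where 0% of all tested genes were called, although 729 genes had an unadjusted p under 0.05 and limma's trend and robust setting called 25, none of them a member. For Fos the high minus low difference was 0.022 (95% interval -0.20 to 0.25), for Fosl2 0.0043 (-0.21 to 0.22) and for Junb -0.0073 (-0.22 to 0.20). These intervals hold for 2 arrays a group in this fit: the Fos value was -0.14 (SE 0.14) with RNA integrity as a covariate and 0.14 (SE 0.12) without low dose replicate 2. Fosb had the largest difference, -0.23 (95% interval -0.47 to 0.014, limma adjusted p = 0.810). That value was -0.10 with the date as a term, -0.067 on the first date only or without high dose replicate 2, and 0.018 with RNA integrity as a covariate.

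The hybridization date touches these comparisons, since both low dose arrays belong to the first date. On the first date the high dose array lay below the control array by 0.56 in Fos, 0.35 in Fosb, 0.40 in Fosl2 and 0.28 in Junb; on the later date the high minus control difference was -0.62, -0.48, -0.29 and -0.27 in the same order. In all 4 genes both high dose arrays lay below both controls, so any pairing of them had to be negative. The sign within each date is therefore no separate support. Against the first date's control, the low dose arrays differed by -0.65 and -0.42 in Fos, -0.48 and -0.34 in Fosl2, -0.35 and -0.28 in Junb, and -0.17 and -0.40 in Fosb. Each date holds 1 control and 1 high dose array. A fit of the 4 first-date arrays takes its spread from the 2 low dose arrays alone; there Fos passed at the high dose (limma adjusted p = 0.0160) and at the low dose (0.00187), and no other member did. The later date, with 2 arrays, allows no test. With the date as a term, Fos passed at the high dose (limma adjusted p = 6.1e-07), as did Fosl2 (0.0496), and the Fos value at the low dose became -0.55 (0.000128). With the replicate number as a block, which equals the date in the control and high dose groups, Fos passed at the high dose (0.000326) and Fosl2 did not (0.466). Fosb had an adjusted p of 0.00493 with the date as a term and 0.124 with the block, but its test in high dose against control is not independent of the filter it passed through its controls. In both fits all genes shared 1 estimate of the spread, so these p-values follow the size of the difference.

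**Figure D3:**
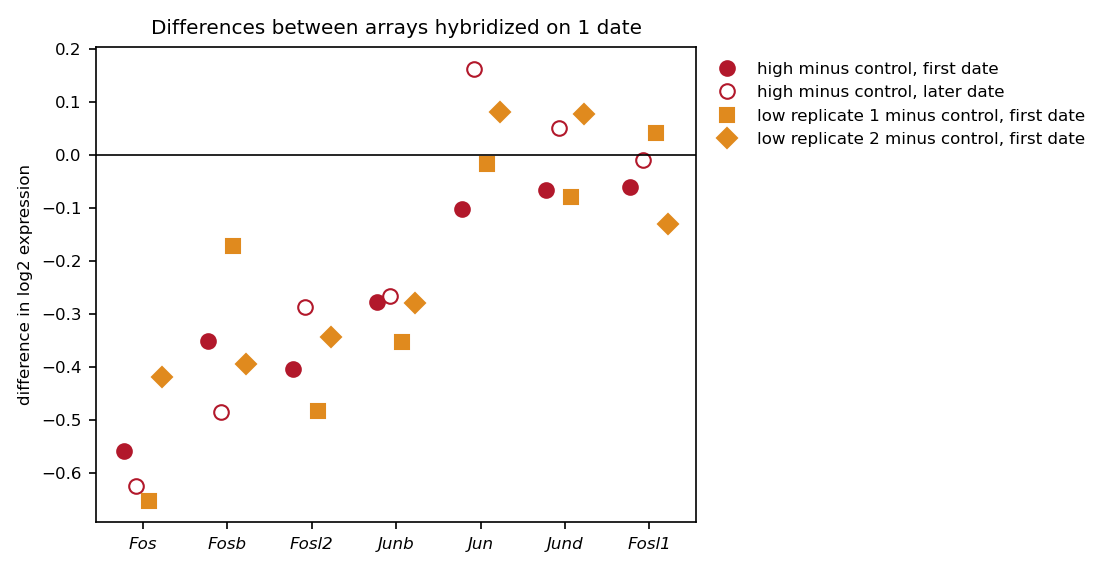
Differences in log2 expression between single arrays hybridized on the same date (vertical axis) for the 7 members, with red circles for high dose minus control on the first (filled) and later (open) date and orange symbols for the 2 low dose arrays minus the first date's control. All 4 points lie below 0 for Fos, Fosb, Fosl2 and Junb, and on both sides of 0 for Jun, Jund and Fosl1.

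Matched by side, high minus control was -0.71 for left and -0.47 for right pools in Fos, -0.28 and -0.41 in Fosl2, -0.17 and -0.37 in Junb, and -0.16 and -0.67 in Fosb. The low dose gave -0.57 on the left and -0.65 on the right in Fos. With both Fos controls above all treated arrays, each of these Fos pairs had to be negative, so their sign adds no support. The same holds for the high dose pairs of Fosl2, Junb and Fosb, whose high dose arrays all lay below both controls. In left against right, with dose as a term, 0 of 6 members were called (0% of all tested genes; 40 genes had an unadjusted p under 0.05), and the member differences ran from -0.055 in Jun to 0.099 in Fos. In the later against the first date, 0 of 6 were called, where 6.97% of all tested genes were. The largest member values there were -0.26 in Fosb (SE 0.092, limma adjusted p = 0.0674), lower on the later date in both groups that span the dates, and 0.22 in Jund (SE 0.092, adjusted p = 0.141), higher in both. Control and high dose each hold 1 array of either date, and the Fosb value at the high dose was -0.42 with or without the date as a term. The side and date fits gave all genes 1 shared estimate of the spread, so their p-values follow the size of the difference.

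Single arrays and processing choices decided which calls were made. The Fos call at the low dose ended without low dose replicate 1 (log2 difference -0.50, limma adjusted p = 0.922) and without low dose replicate 2 (-0.73, 1.00). It also ended with no filter (0.203), with the mean of all probe sets per gene (0.444), after quantile normalization (0.491) and after centring on the 75th percentile (0.425). With no filter and with averaged probe sets the Fos value itself stayed at -0.61, since Fos has no second probe set. There the call ended through the other genes in the fit. The call with both doses together ended without the same arrays (1.00 and 0.364) and under the same 4 choices (adjusted p from 0.111 to 0.369). Leaving out control replicate 1 or 2 gave a Fos value of -0.67 or -0.51 at the high dose. Dropping replicate 1 or 2 of the high dose itself gave -0.55 or -0.64. Each of these fits leaves a single array in 1 group and gives all genes 1 shared estimate of the spread. Only their effect sizes are therefore read, and they are no stronger evidence than the fit of all arrays. Without control replicate 2 the high dose values of Fosl2 and Fosb were -0.41 and -0.51. The RNA integrity number of replicates 1 and 2 was 8.7 and 7.9 for control, 9.1 and 8.9 for low dose and 8.5 and 8.2 for high dose RNA. With it as a covariate the low dose value of Fos was -0.43 (limma adjusted p = 0.411). At the high dose Fos had -0.58 (8.35e-06) and Fosb -0.44 (0.00583). That Fosb test is not independent of the filter, which Fosb passed through its highest arrays. All genes shared 1 estimate of the spread in the covariate fit, so its p-values follow the size of the difference. Over the 18 alternative fits the Fos difference ran between -0.73 and -0.43 at the low and between -0.67 and -0.51 at the high dose. Several of these fits, such as the changed filters or a side term, leave the estimate as it was. With both controls above all treated arrays, leaving out 1 array could not turn its sign. The kept sign is therefore no separate support.

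Some other immediate early genes fell in the same comparison as Fos. Of 19 on the list, all tested, 4 fell with both doses together and 0 rose: Egr2 by 0.88, Egr1 by 0.60 and Nr4a1 by 0.53 on the log2 scale, which encode transcription factors, and Arc by 0.58, which encodes a synaptic protein (limma adjusted p from 7.1e-05 to 0.0231). As for Fos, these calls ended with averaged probe sets, after quantile normalization or centring, and without either low dose array, where limma called 0 of all genes (156 to 652 had an unadjusted p under 0.05). The list's median was -0.16, against 0.0043 over all tested genes and -0.27 over the Fos and Jun genes without Fosb. In 13 of the 19 both controls lay above all treated arrays, beside 4.39% of all tested genes. Npas4, which is also induced by synaptic activity, had a value of 0.056.

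With both doses together the genes that act with or on AP-1 gave no calls. Among 12 tested of 17 dimer partners and related leucine zipper factors 0 were called, with a median of -0.038; Bach2, a repressor that pairs with small Maf proteins, had -0.21 (SE 0.096), and the small Maf gene Mafg -0.13 (SE 0.094). Of 26 upstream kinases and transcription factors 21 were tested and 0 called, with a median of -0.020. Mef2c, an activity-regulated transcription factor, had -0.24 (SE 0.092) and Rps6ka3, the kinase RSK2, -0.17 (SE 0.092), while Srf and Creb1, whose products switch on Fos, had -0.069 and -0.044. All 11 regulators of AP-1 RNA or protein turnover were tested and 0 called (median -0.00099), among them Zfp36, whose protein speeds the decay of Fos RNA, at -0.00099. Of 18 genes described as AP-1 or ΔFosB targets 9 were tested and 0 called (median -0.040): Penk, which encodes enkephalin, had -0.24 (SE 0.12), Gria2, a glutamate receptor subunit, -0.12 and Cdk5, a neuronal kinase, 0.097. By dose, Cdk5 was 0.24 (SE 0.11) at the low dose with both arrays above the controls, and Penk -0.39 (SE 0.13) at the high dose with overlapping groups. Between the dates, Mapk10, the kinase JNK3, fell by 0.29 and Vgf, a neuropeptide precursor among the targets, by 0.40 on the later date (limma adjusted p = 0.0296 and 0.000872). They were the only calls among 21 upstream genes and 9 targets tested, where 6.97% of all tested genes were called. All genes shared 1 estimate of the spread there.

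**Figure D4:**
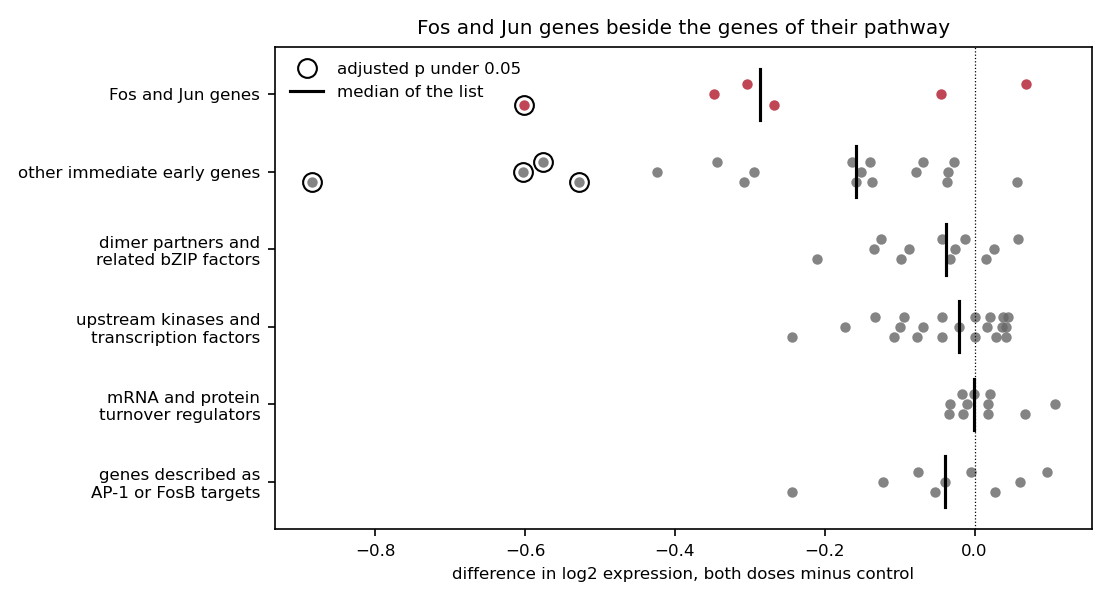
Difference in log2 expression between both doses and control (horizontal axis) for each tested gene of the family and of 5 lists of its pathway, 1 point a gene, with circles around genes past an adjusted p of 0.05 and a bar at each list's median. Fos and 4 other immediate early genes are circled, and the medians are -0.29 for the Fos and Jun genes (Fosb included), -0.16 for the other immediate early genes and between -0.040 and -0.00099 for the other lists.

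Over the 6 arrays, Fosl2 and Junb had a Pearson correlation of 0.98, Fos and Fosl2 one of 0.93, Fos and Junb 0.89, and Fos and Fosb 0.49, whereas Fos and Jun had -0.39 and Fosb and Jund -0.54. These describe 6 points in 3 dose groups. The genes most like Fos were Iqcb1 (0.99), Fam184b (0.98) and Arhgap32 (0.98), and 79 tested genes had a correlation with Fos above 0.9. Dusp1, which encodes a MAP kinase phosphatase and is itself an immediate early gene, was among the 3 genes most like Fosl2 (0.98, after Galnt13 and Reln) and the most like Junb (0.98, before A2ml1 and Fosl2). The nearest for Fosb were Fads2, Crtc2 and Hdhd5 (0.98, 0.98 and 0.97), for Jun Suclg1, Traf6 and Ahcy, and for Jund Tcn2, Lnx1 and Ybx1, the last 6 all between 0.995 and 0.999.

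All 12 hippocampal neuron markers were above the array median on at least 2 arrays, with a mean log2 level of 10.27 to 10.52 in the controls, 10.48 to 10.56 at the low and 10.42 to 10.44 at the high dose. Markers of nearby brain tissue differed in mean level between the dose groups. The mean of the neocortex list (9 of 10 markers measured, all 9 tested) was 10.31 to 10.37 in the controls, 10.05 to 10.29 at the low and 10.11 to 10.12 at the high dose, below the controls on all 4 treated arrays. The striatum list (8 of 10 measured, 7 tested) stood at 9.35 to 9.48, 9.23 to 9.43 and 9.02 to 9.23. All 9 neocortex and 7 striatum markers tested had lower means with both doses together (median differences -0.20 and -0.22), and 0 were called. The choroid plexus and meningeal lists had medians of 0.20 and 0.14 there. The oligodendrocyte list had a median of 0.32 at the low dose, against 0.038 over all tested genes. At the high dose its median was -0.040, close to the -0.030 over all tested genes. The medians of the astrocyte, microglia, endothelium and red blood cell lists with both doses together were 0.052, -0.017, 0.049 and 0.086. Col1a1 of the meningeal list, Pecam1 and Vwf of the endothelial list, and Hba-a1, Alas2 and Slc4a1 of the red blood cell list never exceeded the array median, while every measured marker of the other lists did. The part of these tissues in the Fos, Fosl2 and Junb differences was not tested.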

How the data were processed

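Per the submitters' processing notes the authors made the deposited log2 expression values with RMA in R 3.0.1; the sources used here give neither its settings nor a genome build. Values of 45101 probe sets on 6 arrays ran from 6.10 to 15.31, and were used as deposited. Probe sets were named from the platform annotation, with symbols updated by Entrez identifier. Genes above the array median on at least 2 arrays were tested, 11743 in all. Fits used limma 3.58.1 in R 4.3.3 (lmFit, eBayes, two-sided, Benjamini-Hochberg over all tested genes, threshold 0.05), with 1 coefficient per dose group, and dose as a term in the side and date comparisons; the fit was tested on simulated data. Array number limits the precision. Replicate numbers equal the date in the control and high dose groups, whose replicate differences had a correlation of 0.540 over genes, so the replicate block is a date pairing there; control and low dose had 0.0765. No 2 arrays held identical values. The members and lists were chosen with earlier results of these data known. Named beside the members are list genes past the threshold or, failing that, up to 3 with the largest moderated statistic in any comparison with control, plus a few (Npas4, Srf, Creb1, Zfp36) named for their role after values were seen, and the 3 genes most correlated with each tested member. Start regions and motifs came from RefSeq tables of GRCm38.p6.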

Additional observations from a re-analysis of the deposited data

Results flagged for a closer look

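Jun and Jund differed in sign between dates, untested, with 1 pair of arrays a date: high minus control was -0.10 (first date) and 0.16 (later date) in Jun, and -0.066 and 0.050 in Jund. By side, high minus control was -0.23 for left and 0.21 for right pools in Jund, and -0.11 and 0.036 in Fosl1. Low minus control was 0.23 for left and -0.017 for right pools in Jun, and -0.18 and 0.042 in Fosl1. Arrays of the same side differ in date in all of the left pairs and in the right pair of high dose and control. None of these differences between dates or sides was tested.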

How the results depend on the processing

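The number of members called moved with most choices. The count of all genes called in the same fit is given in brackets. At the high dose the member count was 0 (1). It became 1 with the stricter filter (2), the replicate block (10), date and side (10) or side alone (3) as terms. It became 2 with trend and robust (14) or RIN (39), and 3 with the date as a term (44). The counts of 2 and 3 include Fosb, which passed the filter through its highest arrays. At the low dose and with both doses together it was 1 (5 in each). It became 0 with no filter, averaged probe sets, quantile normalization or 75th percentile centring, where at most 1 of all genes was called. RIN gave 0 (20) at the low dose and 3 (40) with both doses, where the date gave 3 (51) and trend and robust 2 (14), each with Fosb. With both doses and the replicate block the count was 1 (10). For later against first date it was 0 (818), and became 2 after quantile normalization (1505) and 1 after centring (1538) or with trend and robust (673). The count over all genes ran from 0 to 178 at the high, 0 to 546 at the low dose and 0 to 178 with both.

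The second Fosl2 probe set turned the sign to 0.086 at the high dose, 0.12 at the low dose and 0.10 with both. Jun turned to -0.0095 with its other probe set and -0.10 on the first date at the high dose, and to -0.035 on the first date with both doses; without 1 array it ran from -0.046 to 0.11 and from -0.0072 to 0.15. Jund turned to 0.046 (quantile), 0.043 (centring) and 0.0075 (RIN) at the high dose, to 0.027 (date, alone or with side) and 0.14 (RIN) at the low dose, and to 0.0094 and 0.073 with both; without 1 array it ran from -0.15 to 0.13 at the high dose and from -0.13 to 0.035 with both. None of these values of Jun, Jund or Fosl2 was past the threshold, and their cause was not tested. In the side and date comparisons the main fit had a prior of infinite degrees of freedom, so all genes shared 1 spread. In the comparisons of dose groups the same held for fits with a term, without a control or high dose array, or on the first date. On the first date only, that spread rests on the low dose arrays. Where an array was left out, the lone array of its group was assumed to vary like the other groups. Side comparisons could not be fitted on the first date. With 2 arrays a group and no scanner signals used here, dim members such as Fosl1 and Fosb have values near background.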
